A study of Mus musculus with 9 samples.

Results

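The 10 genes described here encode NADPH oxidases, their partner subunits and nitric oxide synthases: Nox1, Nox4, Cybb, Cyba, Ncf1, Duox1, Duox2, Nos1, Nos2 and Nos3. They were taken by symbol from the 18094 genes of the deposited table. All 10 were in the table, and 9 passed the filter on low counts. Duox1 did not pass. The genes were proposed with results of these libraries known: earlier work on the same files had named Nox1 as higher in tamoxifen uteri than in controls and Nos2 as high in a single tamoxifen library. The list was thus in part chosen by the counts of Nox1 and Nos2 in tamoxifen against control libraries. Differences between those groups are therefore given for these genes as a description, with no p-value, and so are those of Nox1 and Nos2 between tamoxifen+primidone and tamoxifen libraries.

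RNA was sequenced from the uterus of 9 female mice killed at 13 weeks of age, 3 in each of 3 groups. Tamoxifen+primidone mice were given 1 mg/kg tamoxifen, a selective estrogen receptor modulator, on days 1 to 5 after birth, and then primidone, an anticonvulsant, by intraperitoneal injection at 2 mg/kg per day for 3 weeks from week 10. Tamoxifen mice had the same neonatal tamoxifen and, from week 10, injections of vehicle. Control mice were fed the solvent alone as newborns and had the same vehicle injections, so solvent feeding and injection were shared by all groups. Neonatal tamoxifen is used as a model of adenomyosis, in which endometrium grows into the uterine muscle. The sources used here do not give the strain, the stage of the estrous cycle or the lesion load of any animal, and no group had primidone without tamoxifen.

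NADPH oxidases are membrane enzymes that pass electrons from NADPH to oxygen and so make superoxide or hydrogen peroxide. Nox1 works in epithelia, best known in the colon, together with Cyba, the organizer Noxo1, the activator Noxa1 and Rac1. Cybb is the catalytic subunit of the phagocyte oxidase, which joins Cyba in the membrane and works with Ncf1, Ncf4 and Rac2 from the cytosol. Nox4 also binds Cyba but is active without the cytosolic subunits, and the dual oxidases Duox1 and Duox2 release hydrogen peroxide at thyroid and mucosal surfaces. Nitric oxide synthases make nitric oxide from arginine with tetrahydrobiopterin as cofactor. Nos1 is the neuronal enzyme, Nos2 the one induced in inflammation and Nos3 the endothelial one, and nitric oxide relaxes smooth muscle through cyclic GMP.

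The 250 bases before the RefSeq start (GRCm38.p6) of Nox1, whose log2 difference between tamoxifen and control libraries was the largest of the 9 tested genes, of Cybb, its phagocyte relative, and of Cyba, the partner of both, are shown to set their promoters side by side. They are chrX:134111855-134112104, chrX:9469325-9469574 and chr8:122432941-122433190, each read from the minus strand, and all 3 end next to the start. Capitals mark matches on either strand to the motif of GATA factors, spelled TGATAA, or to that of AP-1, spelled TGANTCA.
Nox1: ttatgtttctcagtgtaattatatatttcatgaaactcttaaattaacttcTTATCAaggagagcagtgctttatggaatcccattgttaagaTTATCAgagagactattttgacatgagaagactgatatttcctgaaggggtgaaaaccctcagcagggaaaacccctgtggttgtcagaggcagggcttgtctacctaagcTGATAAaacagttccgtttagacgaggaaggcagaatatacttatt
Cybb: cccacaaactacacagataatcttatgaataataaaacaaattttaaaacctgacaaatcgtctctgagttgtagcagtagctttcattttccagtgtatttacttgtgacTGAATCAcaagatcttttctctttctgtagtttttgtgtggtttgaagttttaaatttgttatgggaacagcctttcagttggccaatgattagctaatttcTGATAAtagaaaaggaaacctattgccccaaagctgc
Cyba: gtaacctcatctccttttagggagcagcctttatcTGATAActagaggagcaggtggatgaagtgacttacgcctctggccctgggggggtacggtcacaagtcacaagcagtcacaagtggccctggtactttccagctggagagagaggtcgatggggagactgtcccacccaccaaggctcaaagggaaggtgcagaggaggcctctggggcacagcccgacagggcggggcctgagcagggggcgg
The Nox1 window held TGATAA 3 times, of which 2 were on the other strand, the Cybb window held it 1 time with 1 TGANTCA, and the Cyba window held it 1 time. TGATAA was in 7.94% of the 32841 windows of this length in the table and occurred 3 or more times in 23 of them (0.07%). TGANTCA was in 6.75%. The other motifs searched on both strands, the palindromic estrogen response element (0.0639% of windows), CACGTG (6.02%) and TTCNNNGAA (7.02%), were not in these 3 windows. RefSeq windows were found for 10 of the 12 genes looked for, which were the 10 genes, Noxo1 and Noxa1. Those not found were Nos2 and Nos3. Of the windows not shown, that of Duox1 held TGATAA 1 time, and those of Ncf1 and Nox4 held TTCNNNGAA 1 time each. Those of Duox2, Nos1, Noxa1 and Noxo1 held none of the motifs. Nox1 was picked for its log2 difference, so its 3 matches are a description.

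Library totals were between 36393120 and 39958443 counts, and replicates differed well beyond counting noise. All 8 uterus markers were present in every library: Esr1 was between 276.4 and 365 CPM and Pgr between 225.3 and 307 CPM. The summed level of the 8 was 912.4 to 1136 CPM in tamoxifen+primidone, 813.6 to 902.5 CPM in tamoxifen and 907.5 to 1042 CPM in control libraries. CPM are counts scaled to library size. In whole-tissue RNA, a change in the number of cells of a type and a change in RNA per cell cannot be told apart.

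Levels of different genes were compared as FPKM, which take gene length into account. Cyba stood far above the other 9 in every group, with a mean level of 244.4 FPKM in tamoxifen+primidone, 279 FPKM in tamoxifen and 255.6 FPKM in control libraries. Ncf1 (13.8, 15.3 and 9.76 FPKM in tamoxifen+primidone, tamoxifen and control) and Cybb (9.85, 10.5 and 7.57 FPKM) followed, then Nos3 (4.54, 3.71 and 3.67 FPKM). The order of the low genes differed between groups. Nox1 had rank 8 of 10 in tamoxifen+primidone libraries at a mean of 0.215 FPKM, rank 5 in tamoxifen libraries at 1.63 FPKM and rank 9 in control libraries at 0.0593 FPKM. Its range in tamoxifen libraries overlapped that of Nos1, its next lower neighbour (1.34 FPKM), and in control libraries it overlapped Nos2 (0.0672 FPKM) and Duox1 (0.0517 FPKM). Other neighbours with overlapping ranges were Ncf1 and Cybb in tamoxifen+primidone and control libraries, and Nox4 and Duox2 in all 3 groups. The genes below Duox2 (Nox1, Nos2 and Duox1) also overlapped from one to the next in tamoxifen+primidone libraries, as did Nos1, Nos2 and Duox2 in tamoxifen libraries.

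**Figure D1:**
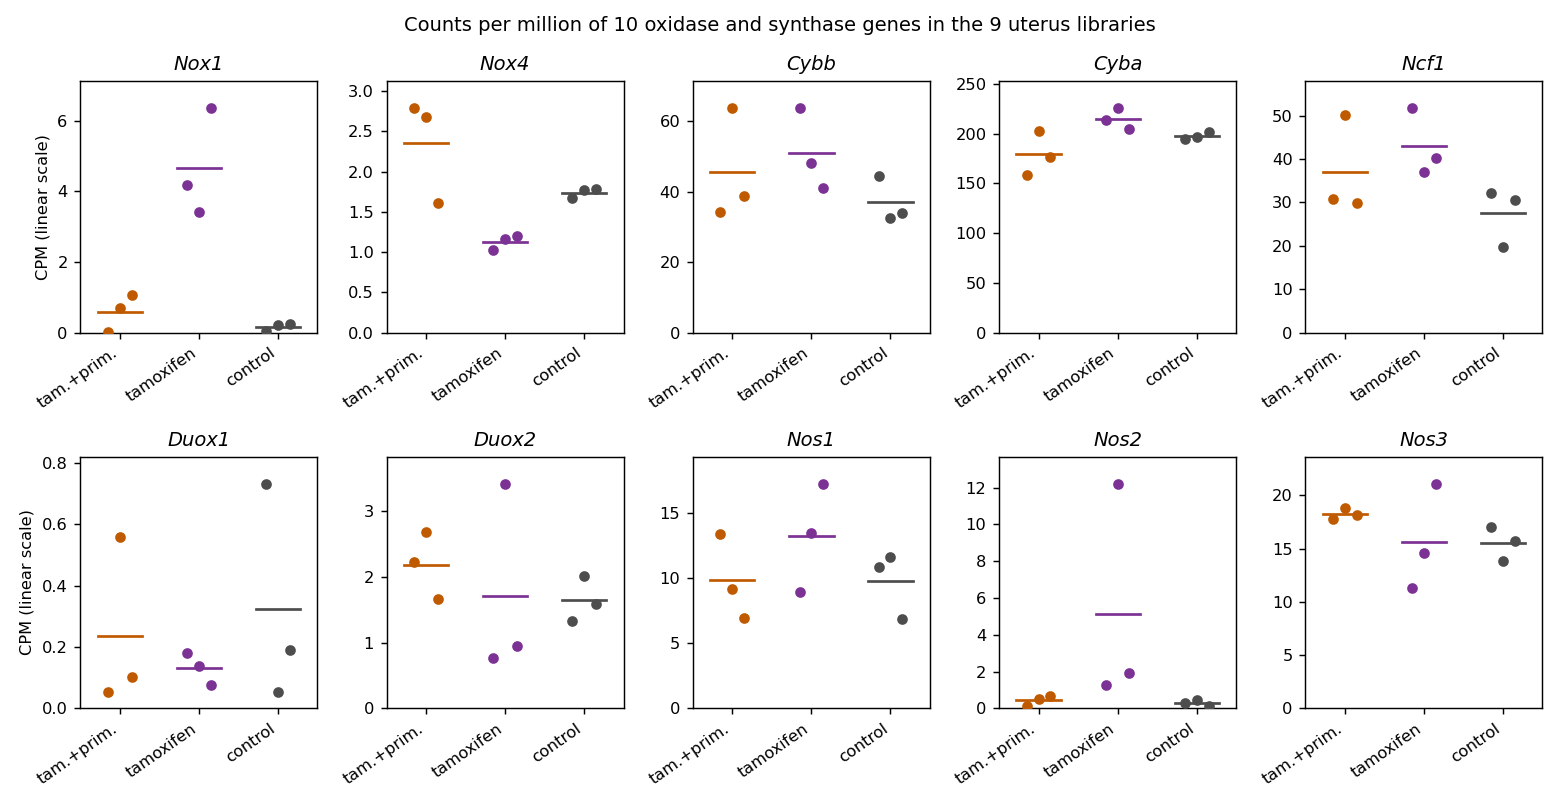
Level in CPM (linear axis from 0) of each of the 10 genes in the 9 libraries, with a line at each group mean; tamoxifen+primidone, tamoxifen and control run from left to right. Nox1 and Nos2 were highest in the tamoxifen libraries, and Nos2 was far higher in tamoxifen replicate 2, at 12.2 CPM, than in the other 8.

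Nox1 was at 0.0259, 0.684 and 1.06 CPM in tamoxifen+primidone replicates 1 to 3, at 4.19, 3.42 and 6.36 CPM in tamoxifen libraries and at 0.0523, 0.214 and 0.243 CPM in control libraries. The counts behind these levels were 1, 27 and 42 in tamoxifen+primidone, 163, 124 and 249 in tamoxifen and 2, 8 and 9 in control libraries. Every tamoxifen library lay above every library of the other groups, and tamoxifen+primidone and control libraries overlapped. Against control, tamoxifen uteri had a Nox1 log2 fold change of 4.76 ± 0.92 (SE, n = 3 each). Of the 9 tested genes, 1 (Nox1) is among those edgeR called in this comparison, which made up 0.573% of all tested genes in the higher and 0.961% in the lower direction (1.53% in either). Nothing is read from that count, since these values bore on the choice of genes and Nox1 passed the low-count filter through the tamoxifen libraries.

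The Nox1 ranges of tamoxifen+primidone and tamoxifen libraries did not overlap, and the log2 fold change was −2.97 ± 0.81. These are the same tamoxifen libraries that bore on the choice, so a gene chosen for high tamoxifen values will tend to be lower here, and the difference is a description. Against control, the tamoxifen+primidone log2 fold change of Nox1 was 1.78 ± 0.91 (edgeR adjusted p = 0.275). It was 2.34 without tamoxifen+primidone replicate 1, which holds 1 count, and 1.06 without replicate 3 (edgeR adjusted p 0.05 to 0.581 over the left-out libraries).

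Cyba, the shared partner, was at 159, 203 and 176 CPM in tamoxifen+primidone, 214, 226 and 205 CPM in tamoxifen and 195, 196 and 202 CPM in control libraries. Its ranges did not overlap between tamoxifen and either of the other groups, but the differences were small, with log2 fold changes of 0.12 ± 0.09 for tamoxifen against control and −0.26 ± 0.09 for tamoxifen+primidone against tamoxifen (edgeR adjusted p = 0.264). Noxa1, the activator, was at 48.2, 73.4 and 47.6 CPM in tamoxifen+primidone, 54.9, 70.3 and 62.0 CPM in tamoxifen and 32.4, 38.5 and 40.3 CPM in control libraries. Both tamoxifen-exposed groups lay above control without overlap. Noxa1 was listed with earlier results of these data known, which limits the p-values that follow. Its log2 fold change against control was 0.61 ± 0.17 in tamoxifen+primidone (edgeR adjusted p = 0.0729) and 0.75 ± 0.17 in tamoxifen libraries (adjusted p = 0.0671), so neither passed the threshold; DESeq2 gave adjusted p of 0.0158 and 0.00248, and edgeR gave 0.0223 for tamoxifen against control without tamoxifen+primidone replicate 2. Noxo1, the organizer, named after its values were seen, was at 3.44, 13.3 and 6.39 CPM in tamoxifen+primidone, 12.9, 22.5 and 12.6 CPM in tamoxifen and 7.24, 8.41 and 9.12 CPM in control libraries. Tamoxifen libraries lay above control without overlap, with a log2 fold change of 0.95 ± 0.43, given as a description. Of the annotated exonic bases of Noxo1 70.4% are shared with Tbl3 on the other strand, so with no strand setting given its counts are uncertain. The log2 fold change of Tbl3 against control was 0.17 ± 0.15 in tamoxifen and 0.31 ± 0.15 in tamoxifen+primidone libraries. For Nox1 the shared part is 12.1%, with Cstf2, whose log2 fold change in tamoxifen against control was 0.14 ± 0.11. For Noxa1 it is 3.09%, with Entpd8, whose log2 fold change against control was −0.79 ± 0.17 in tamoxifen and −1.12 ± 0.17 in tamoxifen+primidone libraries.

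**Figure D2:**
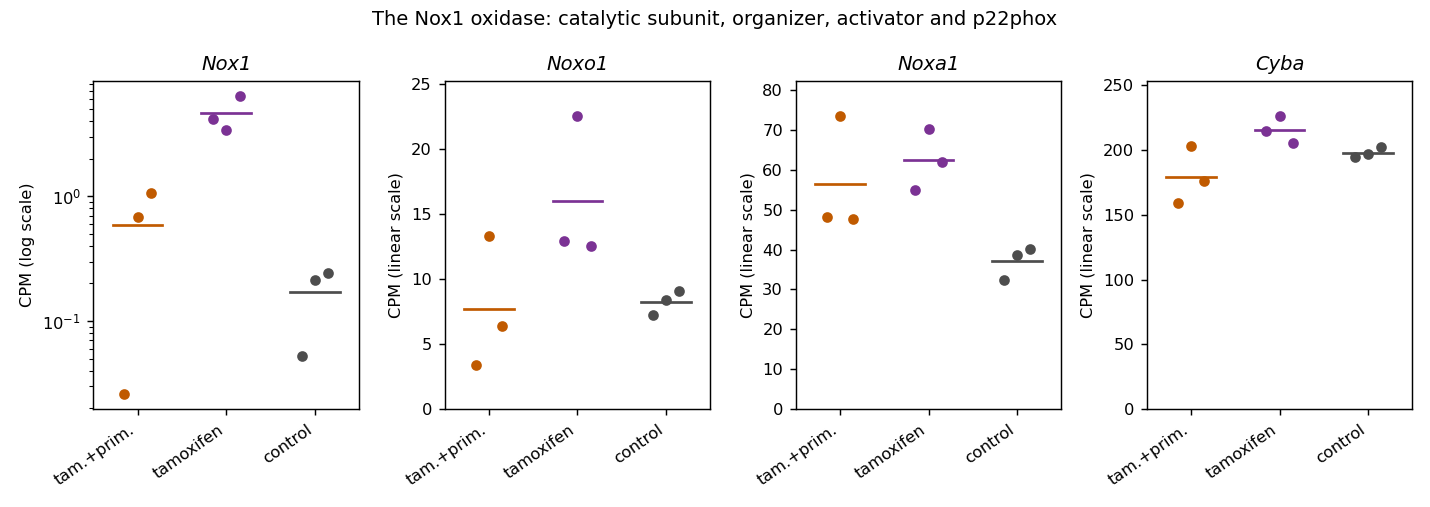
Level in CPM of Nox1 (log axis) and of Noxo1, Noxa1 and Cyba (linear axes from 0) in each library, with a line at the group mean. The 3 tamoxifen libraries held 3.42 to 6.36 CPM of Nox1, all above the other 6 libraries, while Cyba differed by a small amount.

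The 8 uterine epithelium markers summed to 2680 to 3208 CPM in tamoxifen+primidone, 3696 to 4013 CPM in tamoxifen and 3445 to 3713 CPM in control libraries, with none at 0. Per 100 CPM of these markers, Nox1 was 0.000965, 0.0213 and 0.0339 CPM in tamoxifen+primidone, 0.104, 0.0924 and 0.172 CPM in tamoxifen and 0.00152, 0.00579 and 0.00654 CPM in control libraries. The marker sums varied far less than Nox1, so this scale could not change the order of the groups, and nothing is read from it. Since Nox1 is best known in the colon, 10 large intestine markers were checked, of which 9 were in the table. Their sum was 3.78 to 4.65 CPM in tamoxifen+primidone, 4.63 to 6.78 CPM in tamoxifen and 3.75 to 4.21 CPM in control libraries. Of these 9, Cdx1 was 0 in 7, Car1 in 6, Slc26a3 in 5, Cdh17 in 2 and Fabp2 in 1 of the libraries, and Vil1, Muc2, Lgals4 and Gpa33 were at 0 in none. All 5 that passed the low-count filter had positive log2 fold changes in tamoxifen against control (median 0.51), with 2.03 ± 0.89 for Muc2 and 0.87 ± 0.40 for Vil1. EdgeR called 0 of them, and 1 had an unadjusted p under 0.05, beside 17.8% of all genes. In tamoxifen+primidone against tamoxifen 3 of the 5 were negative (median −0.36), with Vil1 below tamoxifen without overlap at −1.32 ± 0.41. There edgeR called 0, and 1 had an unadjusted p under 0.05, beside 13.8% of all genes. Stratified squamous markers (8 of 8 in the table) summed to 69.1 to 108.7 CPM in tamoxifen+primidone, 58.0 to 166.2 CPM in tamoxifen and 35.8 to 84.0 CPM in control libraries. The part of uterine epithelial, intestinal or squamous cells in the Nox1 level was not tested.

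Genes most like Nox1 in standardised log2 CPM over the 9 libraries were Chil1, Ppard and Macir, at root-mean-square differences of 0.28, 0.301 and 0.33, against a median of 1.343 over 13698 genes. Chil1, a chitinase-like protein, was at 5.04, 13.4 and 24.4 CPM in tamoxifen+primidone, 99.5, 80.7 and 152.5 CPM in tamoxifen and 8.75, 8.81 and 20.6 CPM in control libraries. These genes were picked for their likeness, and their own differences are not tests. The 3 nearest of so many genes lay far below the median for each of the 9 tested genes. For Duox2, whose groups overlapped, they were at 0.32, 0.351 and 0.361 against a median of 1.336. The distances thus show no special likeness.

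Nox4 was at 2.79, 2.69 and 1.61 CPM in tamoxifen+primidone, 1.03, 1.16 and 1.20 CPM in tamoxifen and 1.67, 1.77 and 1.78 CPM in control libraries. Tamoxifen libraries were lowest of the 3 groups without overlap, the opposite direction to Nox1. The log2 fold change was −0.62 ± 0.31 in tamoxifen against control and 1.06 ± 0.31 in tamoxifen+primidone against tamoxifen, where edgeR's adjusted p was 0.192 and that of DESeq2 0.0388. Against control, tamoxifen+primidone libraries overlapped and the log2 fold change was 0.44 ± 0.31 (edgeR adjusted p = 0.42). The genes most like Nox4 were Reln, Xrcc2 and Rtn4rl1, at differences of 0.297, 0.324 and 0.337 against a median of 1.326. As for Nox1, these distances show no special likeness.

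Cybb, the phagocyte oxidase, was at 34.2, 63.7 and 38.7 CPM in tamoxifen+primidone, 63.7, 48.2 and 41.0 CPM in tamoxifen and 44.4, 32.5 and 33.9 CPM in control libraries. All 3 groups overlapped. Ncf1, its cytosolic organizer, was at 30.8, 50.03 and 29.8 CPM in tamoxifen+primidone, 51.7, 36.9 and 40.3 CPM in tamoxifen and 32.3, 19.8 and 30.7 CPM in control libraries. Tamoxifen and control libraries did not overlap for Ncf1, with a log2 fold change of 0.64 ± 0.25, while that of Cybb was 0.47 ± 0.25. Neither was called in tamoxifen+primidone against tamoxifen, where the edgeR log2 fold change of Cybb was −0.16 ± 0.25 (adjusted p = 0.824) and that of Ncf1 −0.22 ± 0.25 (adjusted p = 0.755).

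Macrophage markers were set beside these genes. In tamoxifen against control 8 of the 10 markers had positive log2 fold changes, beside 7600 of all 15186 tested genes. The largest was Adgre1 at 0.91 ± 0.24, and 2 were negative (Cd68 −0.22 ± 0.13 and Mertk −0.11 ± 0.14). Ranges of 5 lay above control and of 0 below, beside 12.7% and 13.4% of all genes. EdgeR called 0 of the 10 there, and 2 had an unadjusted p under 0.05, beside 17.8% of all genes. In tamoxifen+primidone against control it called 1 lower, beside 3.21% of all genes. The 10 markers summed to 595, 966.9 and 632.2 CPM in tamoxifen+primidone, 1048, 789.7 and 722.6 CPM in tamoxifen and 723.1, 617.3 and 653.5 CPM in control libraries, with none at 0. Tamoxifen+primidone replicate 2 and tamoxifen replicate 1 had the highest sums and the highest Cybb. Per 100 CPM of macrophage markers, Cybb was 5.74, 6.58 and 6.12 CPM in tamoxifen+primidone, 6.08, 6.11 and 5.67 CPM in tamoxifen and 6.14, 5.26 and 5.19 CPM in control libraries, a narrower spread than its CPM and with overlapping groups. Ncf1 on this scale was 5.18, 5.17 and 4.72 CPM in tamoxifen+primidone and 4.94, 4.67 and 5.58 CPM in tamoxifen libraries. In control libraries it was 4.46, 3.201 and 4.69 CPM, below tamoxifen+primidone without overlap and overlapping tamoxifen. Neutrophil markers (8 of 8) summed to 32.1 to 78.8 CPM in tamoxifen+primidone, 60.5 to 70.4 CPM in tamoxifen and 16.0 to 44.0 CPM in control libraries, with Ngp at 0 in 3 and Mmp8 in 2 of the 9 libraries and the other 6 at 0 in none. Those 6 passed the filter, and all had positive log2 fold changes in tamoxifen against control (median 1.784). S100a8 (3.29 ± 1.20), S100a9 (3.71 ± 1.10), Retnlg (0.89 ± 0.51) and Csf3r (0.86 ± 0.37) lay above control without overlap, beside 12.7% of all genes. EdgeR called 0 of the 6, and 3 had an unadjusted p under 0.05, beside 17.8% of all genes. Mean levels over the 9 libraries were low for S100a8, at 1.19 CPM, and S100a9, at 2.67 CPM. The part of macrophages and neutrophils in the levels of Cybb and Ncf1 was not tested. Of the exonic bases of Ncf1 11.1% are shared with Gtf2ird2 on the other strand, whose log2 fold change in tamoxifen against control was 0.04 ± 0.12.

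Ncf4, a cytosolic subunit that steadies the complex, was named after its values were seen. It was at 9.46, 15.7 and 11.3 CPM in tamoxifen+primidone, 17.2, 14.2 and 11.8 CPM in tamoxifen and 9.98, 9.37 and 10.9 CPM in control libraries. Tamoxifen lay above control, with a log2 fold change of 0.51 ± 0.20, and overlapped tamoxifen+primidone. Rac2, likewise named after its values were seen, had a larger log2 fold change of 0.69 ± 0.22 in tamoxifen against control, also without overlap. Of the 9 tested oxidase subunits and maturation factors outside the 10 genes, 6 had tamoxifen ranges above control, beside 12.7% of all genes. EdgeR called 0 of them, and 5 had an unadjusted p under 0.05, beside 17.8% of all genes. These genes were listed with earlier results of these data known, so the counts are a description.

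**Figure D3:**
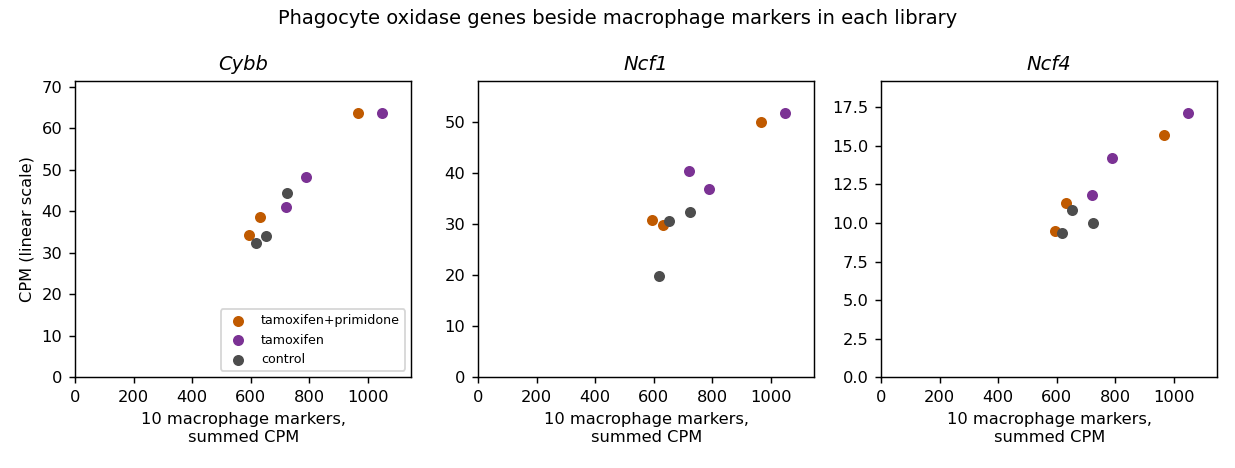
Level in CPM of Cybb, Ncf1 and Ncf4 against the summed CPM of 10 macrophage markers, with 1 point per library and both axes linear from 0. The libraries highest in the markers, at 1048 CPM (tamoxifen) and 966.9 CPM (tamoxifen+primidone), were also highest in Cybb, at 63.7 CPM each.

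Duox1 was near the floor of detection. It had 2, 22 and 4 counts in tamoxifen+primidone, 7, 5 and 3 in tamoxifen and 28, 2 and 7 in control libraries, and it was not tested. Duox2 was at 2.22, 2.69 and 1.66 CPM in tamoxifen+primidone, 0.770, 3.42 and 0.946 CPM in tamoxifen and 1.33, 2.01 and 1.59 CPM in control libraries. The groups overlapped and tamoxifen replicate 2 alone was high among the tamoxifen libraries. The edgeR log2 fold change of Duox2 was 0.36 ± 0.53 in tamoxifen+primidone against tamoxifen (adjusted p = 0.815), and 0.06 ± 0.53 in tamoxifen against control, which became −0.93 without tamoxifen replicate 2.

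Nos2, the inducible synthase, was at 0.129, 0.532 and 0.654 CPM in tamoxifen+primidone, 1.28, 12.2 and 1.92 CPM in tamoxifen and 0.287, 0.455 and 0.135 CPM in control libraries. The counts were 5, 21 and 26 in tamoxifen+primidone, 50, 443 and 75 in tamoxifen and 11, 17 and 5 in control libraries. All tamoxifen libraries lay above all others, but replicate 2 carried most of the counts. The log2 fold change was 4.12 ± 0.99 in tamoxifen against control and −3.54 ± 0.95 in tamoxifen+primidone against tamoxifen, both a description since Nos2 was chosen for its tamoxifen values. Without tamoxifen replicate 2 these were 2.44 and −1.86. Against control, tamoxifen+primidone had a log2 fold change of 0.58 ± 0.99 (edgeR adjusted p = 0.775). The genes most like Nos2 were Slc5a1, Stc2 and Trim27, at differences of 0.141, 0.218 and 0.25 against a median of 1.342. They too were picked for their likeness, and nothing is read from the distances.

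Nos1 was at 13.4, 9.17 and 6.97 CPM in tamoxifen+primidone, 8.91, 13.5 and 17.3 CPM in tamoxifen and 10.9, 11.7 and 6.85 CPM in control libraries, and the groups overlapped. Its log2 fold change was 0.43 ± 0.31 in tamoxifen against control and −0.42 ± 0.31 in tamoxifen+primidone against tamoxifen (edgeR adjusted p = 0.597). Nerve and Schwann cell markers (10 of 10) summed to 6.57 to 9.76 CPM in tamoxifen+primidone, 10.3 to 17.0 CPM in tamoxifen and 13.8 to 15.2 CPM in control libraries; Snap25 was 0 in 8, Th in 6 and Nefl in 4 of the 9 libraries, and the part of nerve cells in the Nos1 level was not tested. Nos3 was at 17.8, 18.8 and 18.1 CPM in tamoxifen+primidone, 11.3, 14.6 and 21.1 CPM in tamoxifen and 17.1, 13.8 and 15.7 CPM in control libraries. Tamoxifen+primidone libraries lay above control without overlap, with a log2 fold change of 0.23 ± 0.20 (edgeR adjusted p = 0.52). Of the exonic bases of Nos3 25.2% are shared with the antisense gene Gm15587 and 7.12% with Atg9b, so its counts are uncertain. Endothelial markers (8 of 8) summed to 475.6 to 599.6 CPM in tamoxifen+primidone, 457.1 to 557.3 CPM in tamoxifen and 525.5 to 607.5 CPM in control libraries.

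Over the 9 tested genes, the median log2 fold change in tamoxifen against control was 0.432, where that of all genes was 0, with 4 genes whose tamoxifen ranges lay above control and 1 below. Of all genes, 12.7% lay above and 13.4% below (26.1% in either direction). Because genes of low level pass the filter through the group where they are high, these counts are a description. In tamoxifen+primidone against tamoxifen the median was −0.22 (all genes 0.015), and 0 of the 9 were called by edgeR, against 0.0132% of all genes. Of the 9, 4 had an unadjusted p under 0.05, beside 13.8% of all genes. Nox1 and Nos2 were among these 4, so nothing is read from the count. Limma on FPKM called 0, and DESeq2 called 3 of the 9, beside 600 of the 15186 tested genes. Of those 3, Nox1 and Nos2 were chosen on these tamoxifen values, and the other was Nox4. Ranges of 1 gene (Nox4) lay above and of 3 (Nox1, Nos2 and Cyba) below, beside 8.08% and 8.55% of all genes (16.6% in either direction). As Nox1 and Nos2 were chosen on these tamoxifen values, the counts in this comparison are a description too. In tamoxifen+primidone against control the median was 0.413 (all genes 0.012), and 0 of the 9 were called by edgeR, DESeq2 or limma, against 5.35% of all genes by edgeR (2.14% higher and 3.21% lower), with 0 at an unadjusted p under 0.05, beside 23.2% of all genes. Ranges of 1 gene, Nos3, lay above control, beside 14.1% of all genes above and 15.1% below (29.1% in either direction).

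**Figure D4:**
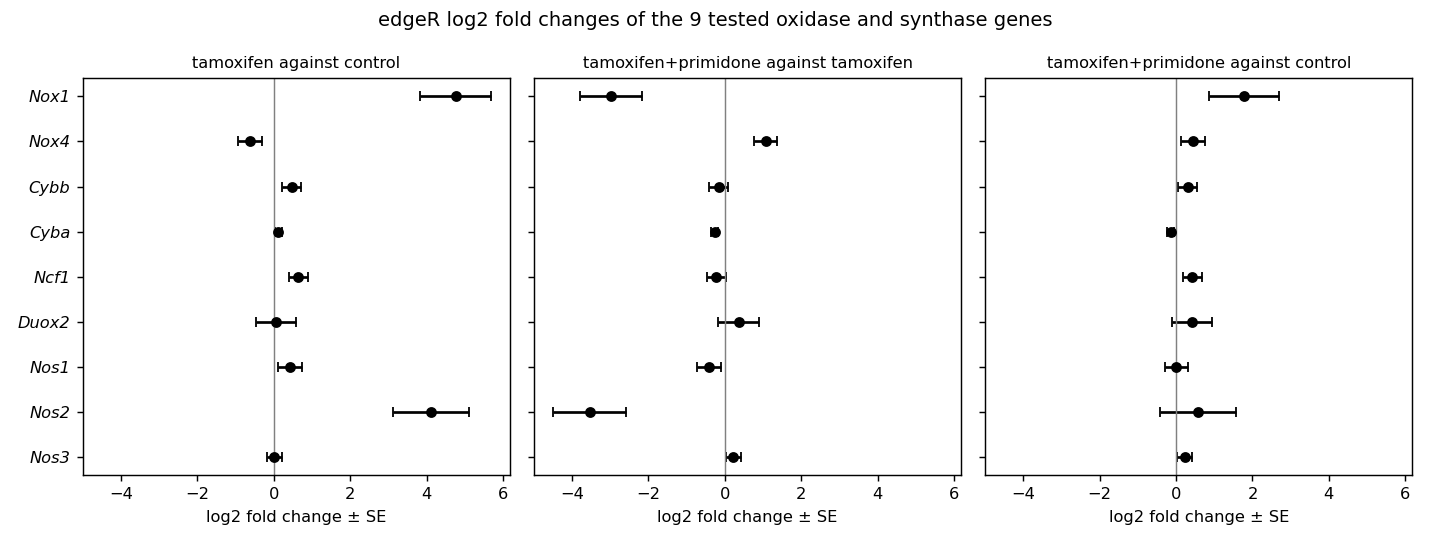
Log2 fold changes ± SE from the edgeR fit for the 9 tested genes in the 3 comparisons (linear axes); tamoxifen against control is at the left, where no p-value is given. Nox1 and Nos2 had log2 fold changes of 4.76 and 4.12 at the left and of −2.97 and −3.54 in tamoxifen+primidone against tamoxifen.

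Of 55 further genes of these pathways 54 were in the table, and all 54 were tested. In tamoxifen against control edgeR called 0 higher and 1 lower, beside 0.573% and 0.961% of all genes. In tamoxifen+primidone against tamoxifen it called 0, beside 0.0132% of all genes. There 13 of 54 had an unadjusted p under 0.05, beside 13.8% of all genes, and DESeq2 called 4, beside 600 of the 15186 tested genes. In tamoxifen+primidone against control edgeR called 0 higher and 3 lower, beside 2.14% and 3.21% of all genes. Nothing is read from these counts. The pathway genes were listed with earlier results of these data known, which limits the p-values below. Pde5a, the enzyme that breaks down cyclic GMP, was at 26.5, 19.4 and 19.3 CPM in tamoxifen+primidone, 16.6, 17.1 and 16.6 CPM in tamoxifen and 24.5, 25.3 and 28.8 CPM in control libraries. It fell in tamoxifen uteri, with a log2 fold change against control of −0.65 ± 0.14 (edgeR adjusted p = 0.0489), and the call was lost when any 1 tamoxifen or control library was left out (adjusted p up to 0.163).

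Arg1, arginase, which uses the same arginine, was at 32.7, 33.0 and 82.5 CPM in tamoxifen+primidone, 384.4, 250.3 and 232.1 CPM in tamoxifen and 189.4, 215.1 and 227.6 CPM in control libraries. All tamoxifen+primidone libraries lay below all others. Against control Arg1 fell in tamoxifen+primidone uteri by 2.09 ± 0.38 on the log2 scale (edgeR adjusted p = 0.0239), and the call was lost without any 1 control library or without tamoxifen+primidone replicate 1 or 2 (adjusted p up to 0.0796). Against tamoxifen its log2 fold change was −2.55 ± 0.39 and did not pass (edgeR adjusted p = 0.0717); it was −3.14 with an adjusted p of 0.00423 without tamoxifen+primidone replicate 3. Ass1, which turns citrulline into the precursor of arginine, was at 37.3, 51.1 and 57.7 CPM in tamoxifen+primidone, 70.1, 59.0 and 83.2 CPM in tamoxifen and 87.1, 92.9 and 108.5 CPM in control libraries. It fell against control by 0.98 ± 0.17 on the log2 scale (edgeR adjusted p = 0.0167), a call lost without control replicate 1 or 3 (adjusted p 0.0511 and 0.0664). Gpx1, a peroxidase that removes hydrogen peroxide, was at 712.5, 765.4 and 775.1 CPM in tamoxifen+primidone, 985.1, 1081 and 1219 CPM in tamoxifen and 1047, 918.7 and 1082 CPM in control libraries. It fell against control by 0.44 ± 0.11 on the log2 scale (edgeR adjusted p = 0.0453), and this call was lost without 8 of the 9 libraries in turn, all but tamoxifen replicate 3 (adjusted p up to 0.148). Uterine epithelium markers were also lowest in tamoxifen+primidone libraries (the sums given with Nox1). Smooth muscle markers (8 of 8) summed to 5667 to 7036 CPM in tamoxifen+primidone, 6025 to 7312 CPM in tamoxifen and 7354 to 11800 CPM in control libraries, with none at 0. The part of these cell types in the levels of Arg1, Ass1, Gpx1 and Pde5a was not tested.

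**Figure D5:**
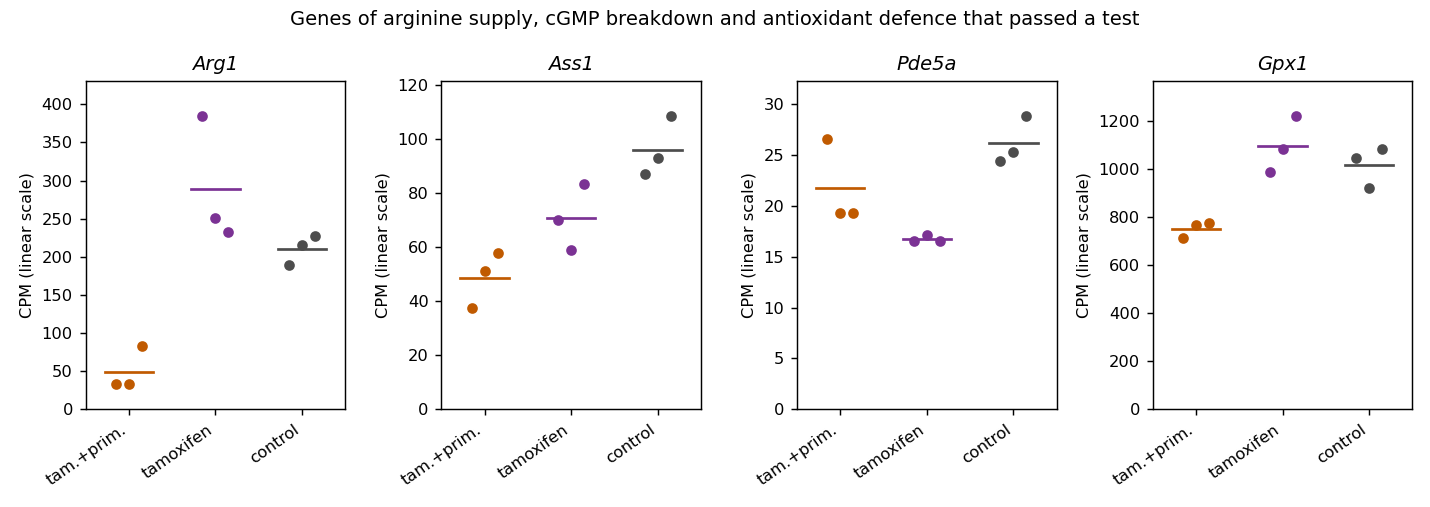
Level in CPM (linear axes from 0) of Arg1, Ass1, Pde5a and Gpx1 in each library, with a line at each group mean. The tamoxifen+primidone libraries were lowest for Arg1, at 32.7 to 82.5 CPM, and Gpx1, at 712.5 to 775.1 CPM, and the tamoxifen libraries lowest for Pde5a, at 16.6 to 17.1 CPM.

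Other genes were named for the highest FPKM of their role. Rac1, the GTPase of the Nox1 complex, averaged 353 CPM in tamoxifen+primidone, 366 CPM in tamoxifen and 370 CPM in control libraries, and Prdx1, a peroxiredoxin, averaged 416, 414 and 410 CPM in the same order of groups. Cav1, which binds and restrains Nos3, averaged 191, 212 and 214 CPM, and Dynll1, a dynein light chain that binds Nos1, averaged 239, 199 and 191 CPM. Spr and Pts, which make tetrahydrobiopterin, averaged 39.3, 36.8 and 36.2 CPM and 37.1, 42.0 and 44.1 CPM, and Gucy1a1, a subunit of the nitric oxide receptor, averaged 37.8, 33.2 and 35.3 CPM. None of these 7 passed edgeR's test in any comparison.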

How the data were processed

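RNA was measured by sequencing in 9 mouse uterus libraries. The authors deposited counts, whole read counts per gene symbol, not normalized, and FPKM for the same genes, scaled for library size and gene length. The build was GRCm39 and the tools listed were HISAT2, HTSeq, DESeq2 and R 3.2.0, per the submitters' processing notes; annotation and strand setting were not stated in them. The labels write vesicle, read here as vehicle.

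Groups came from the labels. Counts were tested in R 4.3.3 with edgeR 4.0.16 (quasi-likelihood, TMM, default low-count filter by group with a minimum count of 10), all 9 libraries in 1 fit, two-sided, Benjamini-Hochberg adjusted over 15186 genes at 0.05. The standard error is the absolute log2 fold change over the square root of F. Alternatives used DESeq2 1.42.0, upper-quartile factors, limma 3.58.1 on log2(FPKM + 1) or log2(FPKM + 0.1), no filter, 6 libraries, a replicate block and leaving out each library. P-values weigh group differences against the spread between these libraries, in edgeR estimated with information shared across genes.

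The genes, the 55 pathway genes and the markers were chosen with earlier results of these data known. Named are all 10 genes, pathway genes past a test and the 2 of highest FPKM per role; genes most like a gene are the 3 nearest among those of at least 1 CPM, for the 3 with the smallest p in the test of any difference. Promoter windows came from RefSeq (GRCm38.p6), and overlaps from GENCODE on the same build, which is not the authors'. Overlapping exons may share reads. The values of 1 pathway gene are not reported here.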

Additional observations from a re-analysis of the deposited data

How the results depend on the processing

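Depth is similar in all libraries, but Nox1, Nos2 and Duox1 rest on few counts in several of them, and 3 libraries a group limit every test. The cause of each change below was not tested. Of the 10 genes, edgeR called 1 in tamoxifen against control: DESeq2 called 2, the fit with a replicate block 2, and leaving out a library gave 0 to 1, all from values that bore on the choice of genes and read no further. In tamoxifen+primidone against tamoxifen it called 0 and DESeq2 3. Of the pathway genes, in tamoxifen against control edgeR called 1, DESeq2 6, upper-quartile factors 0, the 3 limma settings 0 each, the 6 libraries alone 3, the replicate block 2, and leaving out a library 0 to 3; in tamoxifen+primidone against tamoxifen edgeR called 0, DESeq2 4, and leaving out a library gave 0 to 1; in tamoxifen+primidone against control edgeR called 3, DESeq2 9, the replicate block 5, and leaving out a library gave 0 to 4. Over all genes the counts were 233 in tamoxifen against control (DESeq2 1143, limma without FPKM filter 143, the 6 libraries alone 546, leaving out a library 22 to 439), 2 in tamoxifen+primidone against tamoxifen (DESeq2 600, no low-count filter 21, 1 by limma with either pseudocount, limma without filter 0, replicate block 53, leaving out a library 0 to 85) and 812 in tamoxifen+primidone against control (DESeq2 1889, leaving out a library 122 to 800). Of 17 alternatives, Pde5a in tamoxifen against control passed in 6, and Arg1, Ass1 and Gpx1 in tamoxifen+primidone against control in 12, 15 and 5.

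The direction of some differences turned. Duox2 in tamoxifen against control became −0.001 (limma, pseudocount 1, with and without filter), −0.119 (pseudocount 0.1) and −0.176 (replicate block), and ranged from −0.932 to 0.405 when a library was left out. Nos3 in the same comparison became −0.015 (limma, pseudocount 1, with and without filter), −0.027 (pseudocount 0.1) and −0.019 (replicate block), and ranged from −0.267 to 0.197. Left-out libraries also turned Cybb in tamoxifen+primidone against tamoxifen (−0.491 to 0.029) and against control (−0.021 to 0.473), and Nos1 (−0.278 to 0.21) and Noxo1 (−0.749 to 0.257) in tamoxifen+primidone against control. The replicate numbers of the labels share only a number: same-numbered libraries correlated at −0.134 to 0.177 in their deviations, not all above 0.1, so the pairing was not used.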
